A study of Homo sapiens with 12 samples.

Results

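Transcription factor p53 is stabilised after DNA damage and switches on a set of genes that halt the cell cycle, aid repair and retune metabolism. Described here are 45 of its direct targets, chosen as a list of genes for arrest, repair, metabolism and related tasks. The feedback regulators of p53, the death receptors and the BCL2 family were left aside as members. Rows of the gene count table were selected by symbol, and all 45 were present among 19293 genes. All 45 passed the filter on low counts, which left 12160 genes for testing. The smallest member count in any library was 15, for SPATA18, and the largest 6441, for CDKN1A.

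The cells were HT1080, a long-established line from a human fibrosarcoma, a connective tissue tumour. Each of 4 groups had 3 libraries: no treatment, IFNγ (interferon gamma, the type II interferon, 10 ng/ml), ionising radiation at 20 Gy, and the combination of IFNγ and radiation. Treated cells were harvested after 24 h. The line and its culture medium (Eagle's Minimum Essential Medium) were shared by all groups. Whether replicates were grown separately is not said in the labels, and the p-values below therefore rest on library-to-library variation that could be purely technical. All comparisons with untreated cells share the same 3 untreated libraries. In bulk RNA, fewer cells with a transcript and less transcript per cell cannot be told apart.

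The members act at different points of the p53 response. CDKN1A (p21) blocks cyclin-dependent kinases and BTG2 restrains proliferation. XPC and DDB2 recognise damaged DNA for nucleotide excision repair, POLH copies past lesions, and RRM2B supplies deoxynucleotides outside S phase. FDXR, SESN1, TIGAR and TP53I3 act in mitochondrial electron transfer, nutrient sensing, sugar metabolism and redox control. GDF15 is a secreted stress cytokine. The known p53 binding element is a pair of like-built decamers lying next to each other, each with a conserved C and G.

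Total counts ran from 9675126 to 11010656 per library. Of 8 mesenchymal markers 7 passed the filter, with VIM and FN1 the most abundant and THY1 at or near 0, and their summed level was 7434 to 8103 CPM (counts scaled to a common library total, the usual per-million unit) over the 4 groups. Epithelial EPCAM and CDH1 had at most 2 counts in any library. KRT8 and KRT18 carried nearly all of the summed level of the 8 epithelial markers, which was 384 to 410 CPM in untreated, 518 to 530 in IFNγ, 398 to 417 in irradiated and 571 to 587 in combination libraries. Of 6 endothelial markers 2 passed, with a sum of 1.79 to 3.89 CPM. Of 8 immune markers 1 passed, CSF1R, and their sum was 3.55 to 4.51 CPM in untreated, 3.36 to 4.31 in IFNγ, 5.44 to 9.53 in irradiated and 7.15 to 7.71 in combination libraries. Irradiated replicate 2 stood apart from its group: it held 23 counts of the leukocyte gene PTPRC against 2 and 1 in the other irradiated libraries, 14 of LYZ against 4 and 4, 8 of MS4A1 against 0 and 0, and 59 of the interferon-induced GBP5 against 10 and 3. Combination replicate 3 held 9 counts of PTPRC against 3 and 2 in its group, but 3 of LYZ against 2 and 6, and 0 of MS4A1. The part of irradiated replicate 2 in the member results was not tested beyond leaving it out.

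The members moved together after radiation, so the sequence just around their starts was searched for the p53 element. RefSeq windows (build GRCh38.p14) from 250 bases before to 50 after a gene's start were found for 39 of the 45 members, in 54 windows. ASCC3, CMBL, FBXO22, GADD45A, PHLDA3 and RRM2B had no entry. A match was 20 unbroken bases that fitted the p53 response element consensus with at most 3 mismatches and kept the C and G of both decamers. The consensus reads the same on both strands. The 9 members that held such a match are shown with the strand of the gene, in capitals where a base fits the consensus and in lower case where it does not.
DDB2: AAGCTgGTTTGAACAAGCCC
AEN: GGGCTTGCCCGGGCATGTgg
DCP1B: GGGCAgGCCTGGGCTTGTCg
HSPA4L: AAACATGTTTccACATGTTC
ABHD4: GGACcTGgCaAGGCTTGTTT
FDXR: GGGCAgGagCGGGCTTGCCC
GDF15: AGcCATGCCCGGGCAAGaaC
RPS27L: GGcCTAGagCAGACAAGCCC
SESN1: GGACAAGTCTccACAAGTCa

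The best fit was at DDB2, with 19 of 20 bases, at chr11:47214969-47214988 on the + strand, beginning at position -5 from the start. The AEN match (18 of 20 bases, chr15:88621306-88621325, + strand) began at position -34 and the HSPA4L match (18 bases, chr4:127783509-127783528, + strand) at -14. DCP1B (18 bases, chr12:2004650-2004669, - strand) had its match at position -212. Among those with 17 fitting bases, FDXR (chr17:74872996-74873015, - strand), ABHD4 (chr14:22598284-22598303, + strand), SESN1 (chr6:109009018-109009037, - strand) and RPS27L (chr15:63157527-63157546, - strand) had matches that began at positions -21, -16, -49 and -69. That of GDF15 (chr19:18386186-18386205, + strand) began at position 29, just after the start. Matches with at most 3 mismatches were found for 23.1% of members with a window and for 1.37% of the 27305 genes with a window (1.12% of 35116 windows). With at most 2 mismatches the shares of genes were 10.3% and 0.359%. The members were chosen as direct p53 targets, so a higher share among them could be foreseen from the choice. The 27305 genes were not limited to those tested here. The members with the closest fit were not those with the greatest rise: DDB2 rose 3.07-fold after radiation, HSPA4L 1.33-fold and AEN 1.28-fold, against 6.2-fold for FDXR and 5.26-fold for GDF15. On the log2 scale DCP1B rose by 0.89. The other members with 17 fitting bases rose by 1.57 (SESN1), 0.96 (RPS27L) and 0.46 (ABHD4). The median log2 fold change was 0.96 in the 9 members with a match and 1.13 in the 30 without. A match describes letters in this window only, and many p53 elements lie outside such windows.

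Radiation against untreated cells asked what 20 Gy did to these genes at 24 h. Of 45 members 44 rose and 1 fell (edgeR quasi-likelihood test, adjusted p under 0.05 over all 12160 genes), whereas 27.9% of all genes tested were called higher and 28.2% lower, 56.1% in either direction. The members' median log2 fold change was 1.13 and that of all genes 0.01. At least 2-fold increases were called in 25 members, against 3.87% of all genes. The members were chosen as direct p53 targets, with earlier results of these data known. A higher share of risen genes among them could therefore be foreseen from the choice. In 44 members the 3 irradiated libraries lay above the 3 untreated ones, and in 1 below, where 30.4% of all genes lay wholly above and 30.4% wholly below. Summed, the members took 0.271% ± 0.00235 (SD, n = 3) of counts in untreated and 0.599% ± 0.00378 in irradiated libraries. Without irradiated replicate 2 the counts were again 44 and 1, and the 45 log2 fold changes shifted by a median of 0.02, at most by 0.13 for NINJ1 (from 1.13 to 1.26).

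**Figure D1:**
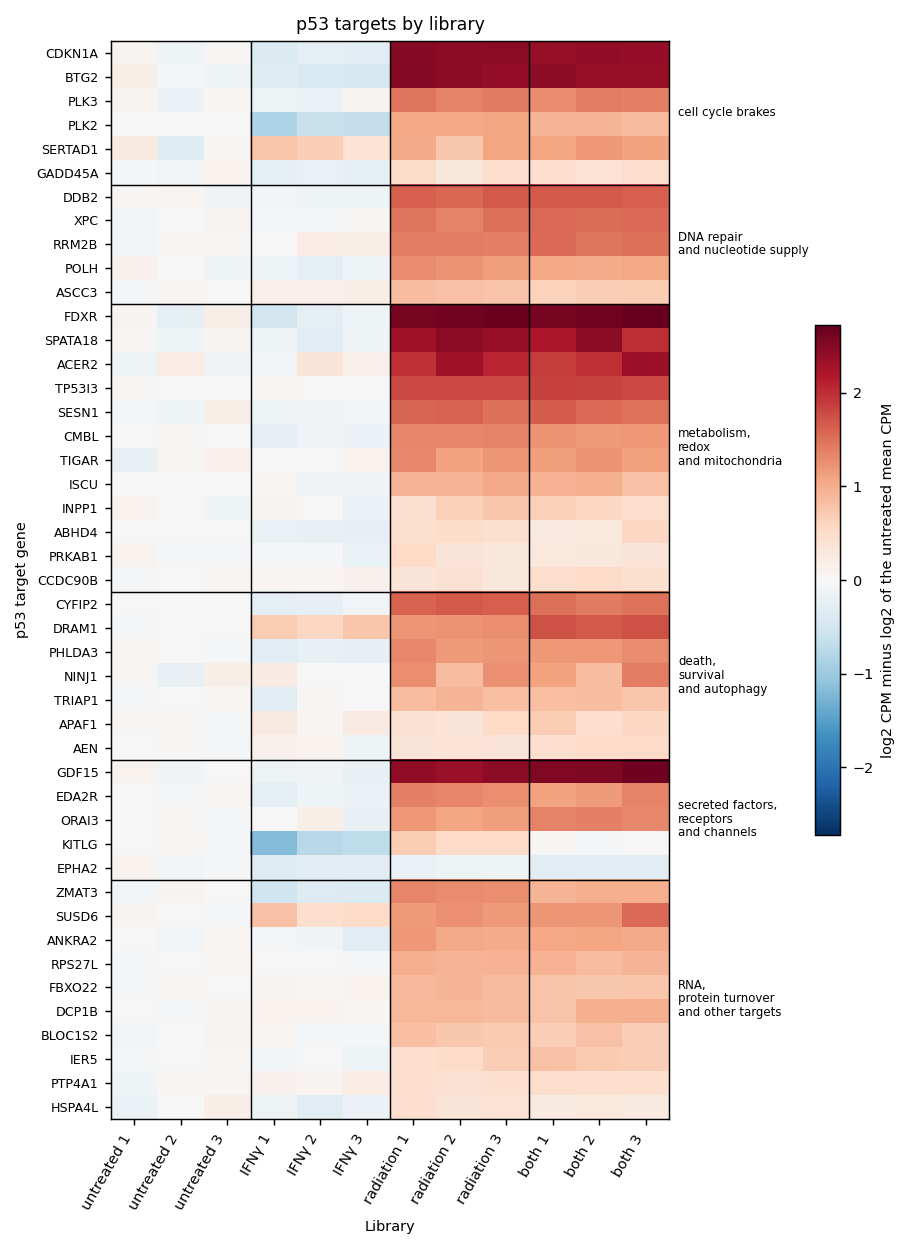
Each row is 1 of the 45 p53 targets, by role, and each column 1 of the 12 libraries; colour is log2 CPM minus the log2 of that gene's untreated mean CPM. The 6 libraries with radiation are red in nearly every row, with EPHA2 below its untreated level in both of those groups and KITLG near it in the combination.

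Increases reached at least 4-fold in 6 members (FDXR, CDKN1A, BTG2, GDF15, SPATA18 and ACER2), lay between 2-fold and 4-fold in 19, between 1.5-fold and 2-fold in 9, and below 1.5-fold in 10. None was among the 50 genes with the greatest log2 fold change in the table, and 6 were among the first 100, FDXR at rank 52 leading.

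The 6 cell cycle brakes all rose, with a median log2 fold change of 1.24. CDKN1A stood at 118, 103 and 115 CPM in untreated, 86.6, 92.3 and 91.9 in IFNγ, 618, 602 and 615 in irradiated and 578, 593 and 591 in combination libraries. Both groups with radiation lay far above both without it, and the IFNγ libraries lay below the untreated ones. Its log2 fold change after radiation was 2.45 ± 0.0373 (± SE), an adjusted p of 8.75e-50. BTG2 read 13.4, 11.7 and 11.1 CPM untreated, 9.59, 9.05 and 8.82 with IFNγ, 68.4, 65.4 and 63.3 with radiation and 65.0, 62.1 and 62.2 with both. Its groups lay in the same order without overlap between those with and without radiation, with a radiation log2 fold change of 2.44 ± 0.0736. GADD45A, a stress sensor that binds PCNA and CDK1, moved least of these genes, by 0.43 ± 0.0547 on the log2 scale after radiation. It was at 57.8, 55.7 and 63.5 CPM untreated, 49.2, 52.1 and 49.7 with IFNγ, 83.6, 72.9 and 81.7 with radiation and 81.5, 77.3 and 81.7 with both. The stress-responsive polo-like kinases PLK3 and PLK2 rose by 1.41 ± 0.0759 and 1.07 ± 0.0356, and SERTAD1, a cofactor of E2F and CDK4, by 0.96 ± 0.143.

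All 5 repair and nucleotide supply genes rose, with a median of 1.38. DDB2 was at 54.0, 54.6 and 49.3 CPM in untreated, 50.0, 47.6 and 48.2 in IFNγ, 162, 155 and 168 in irradiated and 168, 169 and 162 in combination libraries, and rose by 1.62 ± 0.047. XPC was at 46.1, 48.6 and 51.0 CPM untreated, 46.7, 47.4 and 49.8 with IFNγ, 133, 125 and 137 with radiation and 141, 139 and 142 with both, and rose by 1.44 ± 0.0493. For both genes the IFNγ libraries overlapped the untreated ones, while every library with radiation lay above them. RRM2B rose by 1.38 ± 0.044 and POLH by 1.21 ± 0.0527. ASCC3, a helicase used in alkylation repair, had the smallest rise of the group at 0.81 ± 0.0325, from 247, 264 and 253 CPM untreated to 456, 443 and 437 after radiation.

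The 12 genes of metabolism, redox control and mitochondria all rose, with a median of 1.27 and a range from 0.36 to 2.63. FDXR, which passes electrons to mitochondrial cytochromes P450 and iron-sulphur assembly, was at 15.0, 11.8 and 15.7 CPM untreated, 10.1, 11.8 and 13.0 with IFNγ, 85.2, 87.9 and 89.7 with radiation and 85.3, 86.9 and 93.5 with both. Its rise of 2.63 ± 0.073 led all members. SPATA18, which takes part in mitochondrial quality control, was the scarcest member per length in untreated cells: 1.78, 1.60 and 1.83 CPM untreated, 1.58, 1.40 and 1.60 with IFNγ, 8.56, 9.53 and 9.03 with radiation and 8.04, 9.53 and 6.98 with both. It rose by 2.38 ± 0.183, with a wider error than FDXR. The alkaline ceramidase ACER2 (2.12 ± 0.173), the quinone oxidoreductase TP53I3 (1.79 ± 0.0725), the sestrin SESN1, a restraint on mTORC1, (1.57 ± 0.0653), the hydrolase CMBL (1.34 ± 0.0442) and the bisphosphatase TIGAR (1.21 ± 0.0729) followed on the log2 scale. ISCU, the scaffold of iron-sulphur cluster assembly, rose by 0.96 ± 0.0566. Smaller rises were those of the inositol phosphatase INPP1 (0.61 ± 0.111), the lipase ABHD4 (0.46 ± 0.126), the AMPK subunit PRKAB1 (0.40 ± 0.0817) and the mitochondrial CCDC90B (0.36 ± 0.049). CCDC90B read 65.2, 67.4 and 70.5 CPM untreated, 70.0, 70.7 and 73.9 with IFNγ, 86.5, 90.6 and 84.0 with radiation and 94.4, 96.6 and 91.8 with both, so that groups with and without radiation stood apart without overlap.

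The 7 genes of death, survival and autophagy all rose, with a median of 1.13. CYFIP2, a WAVE complex subunit, was at 63.7, 64.6 and 63.1 CPM untreated, 54.0, 54.9 and 60.4 with IFNγ, 196, 204 and 197 with radiation and 182, 171 and 177 with both, a radiation effect of 1.64 ± 0.0439. DRAM1, a lysosomal protein of p53-driven autophagy, rose by 1.24 ± 0.0547, from 37.4, 38.8 and 38.9 CPM to 88.3, 90.0 and 92.8 CPM. PHLDA3, which restrains AKT, rose by 1.22 ± 0.0551, the membrane protein NINJ1 by 1.13 ± 0.138, TRIAP1, a mitochondrial lipid transfer partner with a survival role, by 0.87 ± 0.0641, and the apoptosome scaffold APAF1 by 0.44 ± 0.0746. The exonuclease AEN changed least, by 0.35 ± 0.0474, with 87.6, 88.4 and 84.5 CPM untreated, 94.1, 93.0 and 80.3 with IFNγ, 110.0, 112 and 111 with radiation and 119, 124 and 124 with both.

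Of the 5 secreted factors, receptors and channels 4 rose and 1 fell. GDF15 was at 90.6, 79.8 and 83.9 CPM in untreated, 77.5, 79.5 and 73.4 in IFNγ, 449, 433 and 457 in irradiated and 486, 494 and 534 in combination libraries. It rose by 2.40 ± 0.0417 after radiation, and the combination libraries all lay above the irradiated ones. EDA2R, the receptor of ectodysplasin A2, was at 29.7, 29.1 and 31.1 CPM untreated, 25.0, 27.8 and 26.8 with IFNγ, 78.1, 75.2 and 72.5 with radiation and 64.5, 67.2 and 76.4 with both, and rose by 1.33 ± 0.0629. The store-operated calcium channel ORAI3 rose by 1.13 ± 0.0869.

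EPHA2, a receptor tyrosine kinase for ephrin-A ligands, was the exception to the rise after radiation. Its level was 261, 234 and 240.3 CPM untreated, 193, 201 and 201 with IFNγ, 217, 224 and 225 with radiation and 202, 198 and 197 with both. Every treated library lay below every untreated one, and the fall after radiation was small, -0.14 ± 0.0366 with an adjusted p of 0.000835. KITLG, the ligand of the KIT receptor, rose with radiation alone by 0.57 ± 0.114.

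The 10 remaining members, of RNA and protein turnover and other roles, all rose, with a median of 0.89. ZMAT3, an RNA-binding splicing regulator, was at 147, 164 and 156 CPM untreated, 107, 122 and 119.6 with IFNγ, 391, 378 and 374 with radiation and 295, 310.0 and 308 with both, a radiation effect of 1.29 ± 0.0389. SUSD6, a membrane protein, was at 15.1, 14.2 and 13.8 CPM untreated, 24.9, 19.6 and 20.8 with IFNγ, 32.1, 33.9 and 32.2 with radiation and 32.9, 33.1 and 41.7 with both, and rose by 1.19 ± 0.0943, or by 1.16 without irradiated replicate 2. All 3 IFNγ libraries of SUSD6 lay between the untreated and the irradiated ones. HSPA4L, an HSP110 chaperone, moved least: 29.5, 32.9 and 37.7 CPM untreated, 30.4, 27.0 and 29.8 with IFNγ, 46.1, 42.9 and 43.9 with radiation and 39.6, 40.5 and 39.4 with both, an effect of 0.41 ± 0.0686. ANKRA2 rose by 1.07 ± 0.0945, the ubiquitin ligase adaptor FBXO22 by 0.89 ± 0.0465, the decapping cofactor DCP1B by 0.89 ± 0.0914, the lysosome positioning subunit BLOC1S2 by 0.76 ± 0.0598, IER5 by 0.55 ± 0.0619 and the phosphatase PTP4A1 by 0.45 ± 0.0382.

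RPS27L, a ribosomal protein paralog, rose by 0.96 ± 0.0378 after radiation. RPS27, the gene it is a paralog of and not a member, was at 400.6 ± 9.24 CPM (SD, n = 3) untreated and 447 ± 5.38 with radiation, a log2 fold change of 0.16. Whether the counting step split reads between the pair was not tested, so the value of RPS27L carries that uncertainty. In GENCODE release 29, exons of 21 members overlap exons of another gene, 18 on the opposite strand and 4 on the same strand, among them TIGAR and PTP4A1 on the same strand and CDKN1A with the antisense DINOL. The strand setting of the counting is not given in the sources used here, so part of these counts may belong to the overlapping gene.

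**Figure D2:**
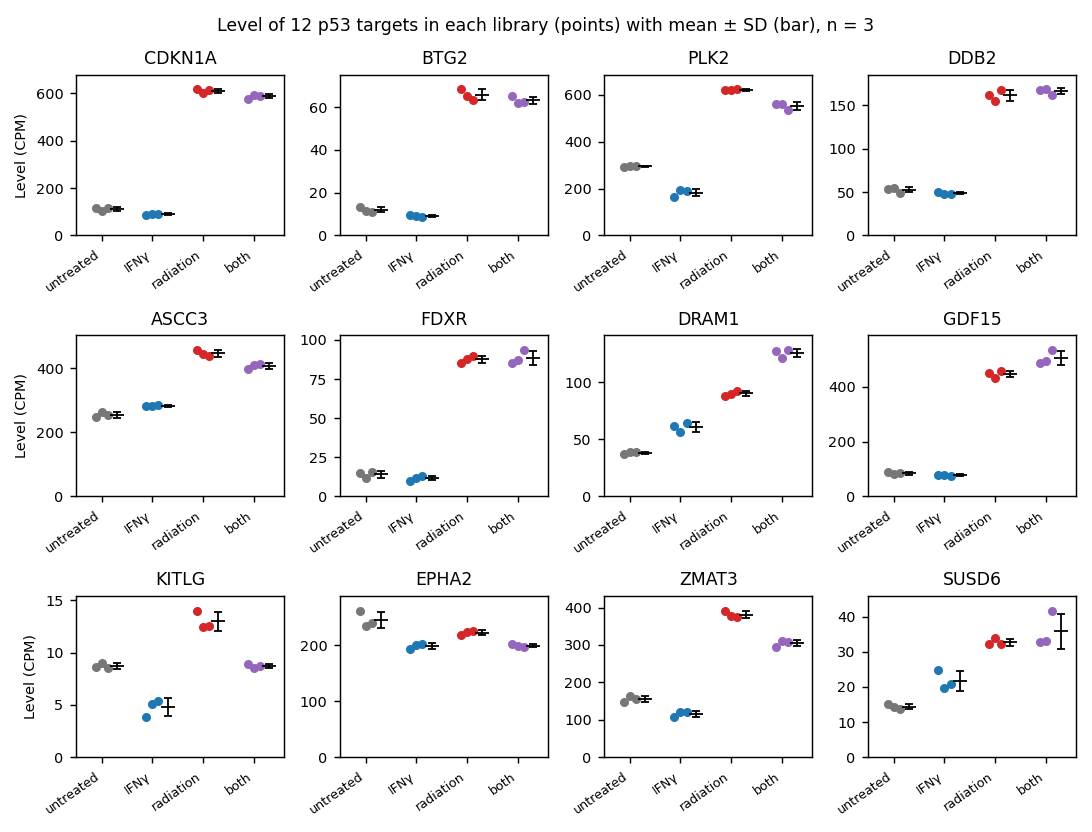
Levels in CPM (y axis, from 0) of 12 members in the 3 libraries of each group (points), with the mean ± SD as a bar beside them. Most panels show 2 low and 2 high groups; KITLG in the combination lies close to its untreated level, EPHA2 is highest in untreated cells, and DRAM1 climbs with each treatment.

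Because longer transcripts give more counts, levels of different genes were compared per kilobase of exon (lengths from GENCODE release 29, a later build than that of the counts, so these levels are approximate). The length was that of all annotated exons of a gene joined, which can exceed the transcript expressed. It was 9.127 kb for RPS27L and 11.837 kb for FBXO22, and levels per kilobase of such genes may be understated. In untreated cells the order began with PLK2 at 62.0 ± 0.472 CPM per kb (SD, n = 3), EPHA2 at 58.9 ± 3.45, PTP4A1 at 45.4 ± 3.29, GDF15 at 40.6 ± 2.61 and CDKN1A at 36.6 ± 2.66. PLK2 and EPHA2, PTP4A1 and GDF15, and GDF15 and CDKN1A were neighbours whose means lay within about the sum of their SDs. After radiation GDF15, at 213.9 ± 5.88, and CDKN1A, at 200.5 ± 2.88, led, followed by PLK2 at 129.9 ± 0.645 CPM per kb. By these lengths the 3 genes held 50.2% of the members' summed gain per kilobase, GDF15 21.5%, CDKN1A 20.3% and PLK2 8.41%. Both the order and the shares depend on the lengths used. SPATA18 was last in both groups, at 0.351 ± 0.0243 and 1.83 ± 0.0983 CPM per kb.

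The next comparison, IFNγ against no treatment, addressed the response to the cytokine on its own. Changes were small: 6 members were called higher and 14 lower, while 15% of all genes tested were called higher and 14.1% lower. No member was called higher by 2-fold, which 2.55% of all genes were. The median log2 fold change of the members was -0.07 and that of all genes -0.01. With library totals in place of scaled ones, 4 members were called higher and 16 lower, and the share of all calls that were higher went from 51.6% to 31.1%. DESeq2 called 5 members higher and 9 lower. The 25 members not called lay between -0.20 and 0.18, and these included SESN1, TIGAR, TP53I3, XPC and DDB2.

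Members lowered by IFNγ included 4 of the 6 cell cycle genes. KITLG fell most, by 0.86 ± 0.142 on the log2 scale (adjusted p = 1.75e-06). It was at 8.62, 9.03 and 8.52 CPM untreated, 3.86, 5.13 and 5.41 with IFNγ, 14.0, 12.4 and 12.5 with radiation and 8.92, 8.50 and 8.72 with both, so the combination overlapped the untreated libraries and the single treatments lay on either side. PLK2 fell by 0.70 ± 0.0389, with 293, 297 and 297 CPM untreated, 164, 193 and 189.7 with IFNγ, 617, 617 and 623 with radiation and 561, 562 and 534 with both. ZMAT3 fell by 0.42 ± 0.0437, BTG2 by 0.40 ± 0.111, CDKN1A by 0.31 ± 0.0444, EPHA2 by 0.31 ± 0.037, PHLDA3 by 0.24 ± 0.0655 and GADD45A by 0.23 ± 0.0587. For these 8 members all IFNγ libraries lay below all untreated ones; in all, 13 members did, against 19.7% of genes tested. The call of BTG2 ended without untreated replicate 1 (adjusted p = 0.0554). CYFIP2 fell by 0.18 ± 0.0523.

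The remaining 5 lower calls, all small, ended in DESeq2 and when some single libraries were left out. With only the IFNγ and untreated libraries in the fit, 11 members were called lower, and POLH (adjusted p = 0.0506), FDXR (adjusted p = 0.0742) and HSPA4L (adjusted p = 0.0666) were not. POLH (-0.17 ± 0.0613) lost its call without untreated replicate 1 (-0.11), untreated replicate 2 (-0.17) or IFNγ replicate 2 (-0.13). CMBL (-0.16 ± 0.0514) lost it without untreated replicate 2 (-0.14) or IFNγ replicate 1 (-0.14), and HSPA4L (-0.20 ± 0.0741) without untreated replicate 2 (-0.20), untreated replicate 3 (-0.10) or IFNγ replicate 2 (-0.15). FDXR (-0.28 ± 0.109) was the least settled: its call ended without untreated replicate 1 (-0.23) or 3 (-0.20), IFNγ replicate 1 (-0.20) or 2 (-0.29), irradiated replicate 2 (-0.28) or combination replicate 2 (-0.28). GDF15 (-0.14 ± 0.0503) is taken up with the interaction.

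Members raised by IFNγ were led by DRAM1, at 37.4, 38.8 and 38.9 CPM untreated and 61.7, 56.4 and 64.6 with IFNγ, a rise of 0.67 ± 0.0581 (adjusted p = 1.91e-14). SERTAD1 rose by 0.61 ± 0.15, with 6.19, 4.14 and 5.38 CPM untreated, 8.90, 8.30 and 6.82 with IFNγ, 10.8, 8.73 and 11.1 with radiation and 11.1, 11.9 and 11.1 with both. SUSD6 rose by 0.60 ± 0.102. In all 3 genes every IFNγ library was above every untreated one. ASCC3 (0.15 ± 0.0335), RRM2B (0.14 ± 0.049) and PTP4A1 (0.13 ± 0.0389) were also called higher. With library totals, RRM2B (0.08) and PTP4A1 (0.07) were not. RRM2B was also not called in DESeq2, with only the 2 groups in the fit (adjusted p = 0.0579), or without untreated replicate 1 (0.10), IFNγ replicate 2 (0.10) or IFNγ replicate 3 (0.11), nor PTP4A1 without untreated replicate 1 (0.07) or IFNγ replicate 3 (0.09).

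The combination against untreated cells gave 43 members higher and 1 lower, where 30.9% of all genes tested were called higher and 31.2% lower. At least 2-fold increases were called in 24 members and 5.97% of all genes, and 43 members lay wholly above the untreated libraries, as did 31.9% of all genes. Here too the higher shares could be foreseen from the choice of members. The median was 1.05 for members and 0.00 for all genes. EPHA2 was the member called lower, at -0.30 ± 0.0368, and KITLG was not called (-0.003 ± 0.123). FDXR (2.65 ± 0.0725), GDF15 (2.57 ± 0.0414), CDKN1A (2.40 ± 0.0373) and BTG2 (2.39 ± 0.0737) led. Summed, the members took 0.566% ± 0.00247 (SD, n = 3) of counts. The call of ABHD4 (0.37 ± 0.127) ended in DESeq2 (adjusted p = 0.0814) and without combination replicate 3 (0.27).

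Radiation was next measured within IFNγ-treated cells, as the combination against IFNγ alone; this comparison and that of radiation with untreated cells have no library in common. Of 45 members 44 rose and 0 fell, where 30.3% of all genes were called higher and 30.4% lower, 60.7% in either direction. At least 2-fold increases were called in 24 members, against 4.84% of all genes, and 44 members lay wholly above the IFNγ libraries, as did 31.9% of all genes. As for radiation alone, the choice of known p53 targets made higher shares among the members foreseeable. The median was 1.05 for members and 0.00 for all genes. At an unadjusted p under 0.05, 44 members passed, and DESeq2 called 44 higher and 0 lower. The member not called was EPHA2 (0.004 ± 0.0376). FDXR (2.93 ± 0.0757), BTG2 (2.78 ± 0.0784), GDF15 (2.71 ± 0.0421) and CDKN1A (2.70 ± 0.0384) rose most.

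Whether IFNγ altered the size of the radiation effect was tested as the interaction, the log2 effect of radiation with IFNγ minus its effect without. It was called for 5 of 45 members, 3 higher and 2 lower, where 1.38% of all genes tested were called higher and 0.995% lower. The other 40 lay between -0.46 and 0.34, and a difference of that size may go uncalled where the error is wide, as for SERTAD1 (-0.46 ± 0.192) or BTG2 (0.34 ± 0.123). That of FDXR (0.30 ± 0.121) was called without untreated replicate 2 (0.42). The median was 0.03 for members and 0.00 for all genes. Without irradiated replicate 2, 3 were higher and 1 lower, and without untreated replicate 2, 5 were higher.

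PLK2 had the largest interaction, 0.53 ± 0.0517 (adjusted p = 7.22e-10): radiation raised it by 1.07 ± 0.0356 without IFNγ and by 1.60 ± 0.0375 with it. Its IFNγ libraries had started lower, at 182 ± 15.8 CPM against 296 ± 2.25 (SD, n = 3), and its combination libraries lay below the irradiated ones, at 552 ± 15.9 against 619 ± 3.07. The larger fold in IFNγ-treated cells went with lower levels before and after radiation. CDKN1A had an interaction of 0.25 ± 0.0546 (adjusted p = 0.00412), with radiation effects of 2.45 ± 0.0373 and 2.70 ± 0.0384. Here too the IFNγ libraries were the lower ones before radiation, and the levels after it, 612 ± 8.77 and 587 ± 8.27 CPM, differed by -0.06 ± 0.0318 on the log2 scale, which was not called (with library totals it was, at -0.10 and an adjusted p of 0.0127).

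GDF15 and ASCC3 moved with IFNγ in opposite directions in unirradiated and irradiated cells. IFNγ lowered GDF15 by 0.14 ± 0.0503 without radiation and raised it by 0.18 ± 0.0347 with it, an interaction of 0.32 ± 0.0611 (adjusted p = 0.000916). The call of the first of these ended without untreated replicate 1 (-0.09), without IFNγ replicate 3 (-0.11) and in DESeq2 (adjusted p = 0.0573). ASCC3 showed the reverse. Its levels were 247, 264 and 253 CPM untreated, 281, 281 and 284 with IFNγ, 456, 443 and 437 with radiation and 396, 408 and 413 with both, so that IFNγ raised it by 0.15 ± 0.0335 in unirradiated cells, lowered it by 0.13 ± 0.0313 in irradiated cells, and gave an interaction of -0.28 ± 0.0458 (adjusted p = 5.26e-05). No library of the groups compared overlapped in either direction. SUSD6 had an interaction of -0.46 ± 0.129 (adjusted p = 0.0406), with radiation effects of 1.19 ± 0.0943 and 0.73 ± 0.0844. That call ended in DESeq2 (adjusted p = 0.152) and when 1 of 8 single libraries was left out: untreated replicate 2 (-0.45) or 3 (-0.43), IFNγ replicate 1 (-0.34), irradiated replicate 1 (-0.47), 2 (-0.43) or 3 (-0.47), and combination replicate 1 (-0.40) or 2 (-0.40).

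**Figure D3:**
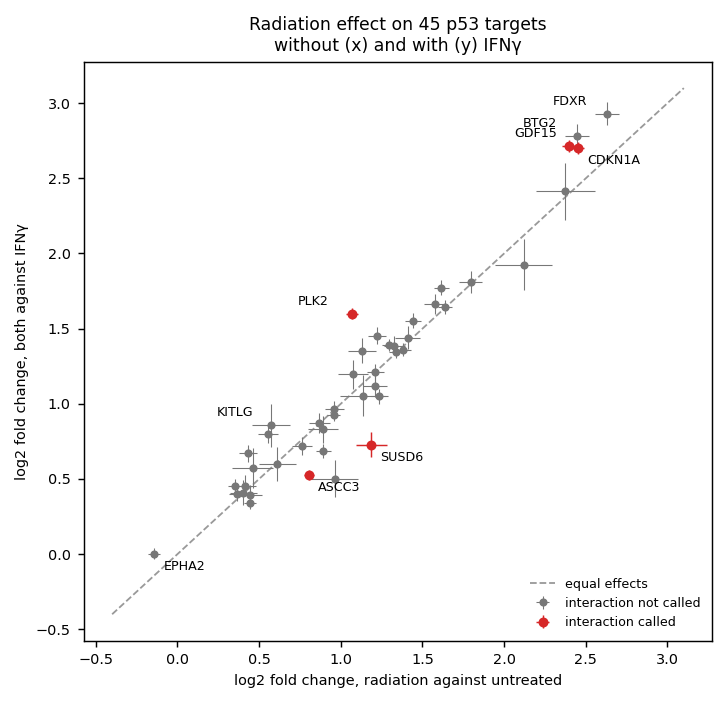
Log2 fold change of each of the 45 members after radiation without IFNγ (x axis) and with IFNγ (y axis), with SE bars; the dashed line marks equal effects and red points are the 5 called interactions. PLK2, GDF15 and CDKN1A lie above the line, ASCC3 and SUSD6 below it, and EPHA2 is the only member below 0 on the x axis.

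The effect of IFNγ within irradiated cells, the combination against radiation alone, was small: 6 members were called higher and 9 lower, where 14.5% of all genes were called higher and 12.4% lower, 26.9% in either direction. No member was called higher by 2-fold, which 2.46% of all genes were. The median was -0.05 for members and -0.01 for all genes. With library totals 2 were higher and 13 lower, and the share of all calls that were higher went from 53.9% to 38.1%. DESeq2 called 2 higher and 9 lower. Without irradiated replicate 2 the counts were 5 and 8, and without irradiated replicate 1 the number higher was 3.

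DRAM1 rose by 0.48 ± 0.0453 (adjusted p = 3.76e-13), from 88.3, 90.0 and 92.8 CPM with radiation to 128, 122 and 128 CPM with both with no overlap; in all, 8 members lay wholly above and 11 wholly below, against 20.5% and 19.8% of all genes. GDF15 (0.18 ± 0.0347) followed as the other call that DESeq2 kept. ORAI3 rose by 0.22 ± 0.0716, with 13.0, 13.4 and 12.7 CPM untreated, 12.9, 14.6 and 11.3 with IFNγ, 29.4, 27.5 and 28.8 with radiation and 33.4, 33.7 and 32.4 with both, but its call ended in DESeq2 (adjusted p = 0.178) and without irradiated replicate 2 (0.19) or combination replicate 2 (0.20). It also ended with library totals (0.17). The calls of RRM2B (0.11 ± 0.0385), AEN (0.14 ± 0.0451) and IER5 (0.18 ± 0.0565) ended in DESeq2 and with library totals as well. They ended too for RRM2B without irradiated replicate 1 (0.11) or 3 (0.11) or combination replicate 1 (0.09), for AEN without irradiated replicate 1 (0.13) or combination replicate 2 (0.13) or 3 (0.13), and for IER5 without irradiated replicate 1 (0.13) or 2 (0.16) or combination replicate 1 (0.14).

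KITLG fell by 0.58 ± 0.113 in irradiated cells and ZMAT3 by 0.32 ± 0.0363. POLH fell by 0.18 ± 0.047, with 53.7, 49.9 and 45.2 CPM untreated, 44.8, 41.7 and 45.9 with IFNγ, 120.4, 116 and 109 with radiation and 103, 101 and 102 with both. PLK2 (-0.17 ± 0.034), CYFIP2 (-0.17 ± 0.0381), EPHA2 (-0.16 ± 0.0373), CMBL (-0.15 ± 0.0392), FBXO22 (-0.15 ± 0.0429) and ASCC3 (-0.13 ± 0.0313) made up the rest; that of FBXO22 ended without irradiated replicate 2 (adjusted p = 0.0524). Members called lower in both IFNγ comparisons were CMBL, CYFIP2, EPHA2, KITLG, PLK2, POLH and ZMAT3. DRAM1 and RRM2B were called higher in both, and GDF15 and ASCC3 went opposite ways. The share of all genes called alike in both comparisons was not computed. CDKN1A, BTG2, FDXR, GADD45A, HSPA4L and PHLDA3 were called lower without radiation and not called with it; of these the difference between both effects was called for CDKN1A.

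**Figure D4:**
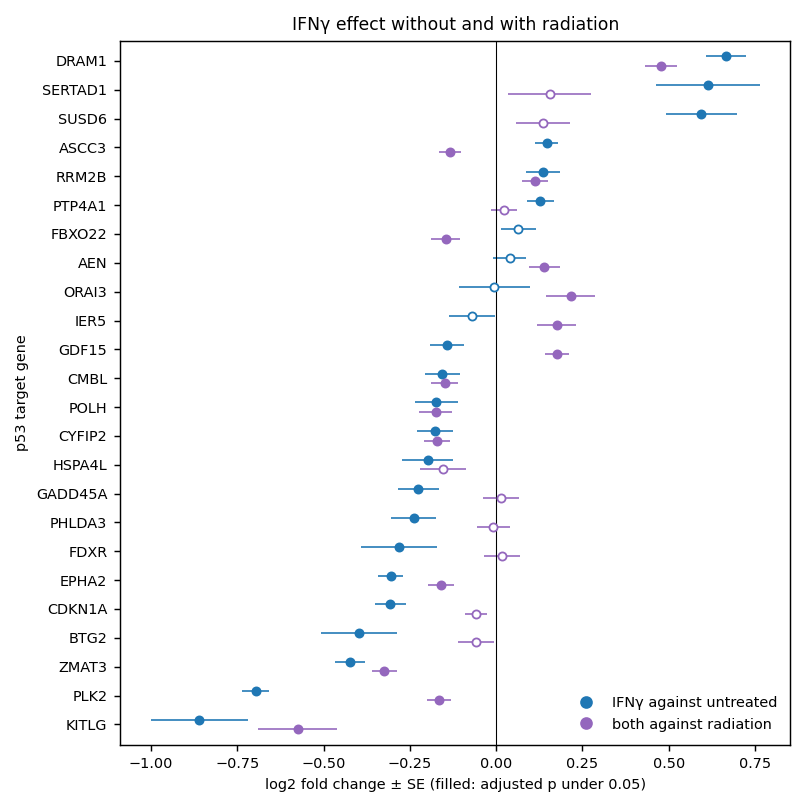
Log2 fold change ± SE (x axis) of IFNγ without radiation (blue) and with radiation (purple) for the 24 members called in at least 1 of both comparisons; filled points passed an adjusted p under 0.05. KITLG, PLK2 and ZMAT3 are lowest and DRAM1 highest, and blue and purple points of GDF15 and ASCC3 fall on opposite sides of 0.

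Other genes of the p53 pathway were measured in the same fit. Among its feedback regulators, the inhibitor MDM2 (2.14), the phosphatase PPM1D (1.54), CCNG1 (1.03) and TP53INP1 (2.49) rose after radiation on the log2 scale. MDM4 fell by 0.43, and RCHY1 (-0.14) and RFWD2 (-0.01) were not called. Of 9 death receptor and BCL2 family genes 7 passed the filter and 6 rose, led by FAS (1.60) and BBC3 (1.38). Of all genes tested 27.9% were called higher after radiation and 28.2% lower. IFNγ alone raised 1 of these 7, PMAIP1 (1.38), and lowered 1, TNFRSF10B (-0.14). With IFNγ 15% of all genes tested were called higher and 14.1% lower, so these counts among 7 genes are near the shares of all genes. Of the regulators named, IFNγ lowered CCNG1 (-0.18), and the others, MDM2 (0.06) among them, were not called. The edgeR interaction was called for none of these regulators and 7 death genes. Of all genes tested 2.38% were called, a share so low that none among so few genes says little. Before adjustment 3 of them, CCNG1 (0.14), BAX (0.17) and PMAIP1 (-0.19), were under 0.05.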

How the data were processed

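The deposited table holds whole-number counts of reads per gene for 12 libraries. Per the labels' protocols, stranded total RNA libraries were made after ribosomal RNA removal, whereas the series' design text names an mRNA protocol. FastQC 0.11.3, TopHat2 2.0.13, Cufflinks, Cuffdiff 2.2.1 and hg19/GRCh37 are named per the submitters' processing notes. How reads were counted, on which strand and against which annotation release, is not given in the sources used here. All genes listed are protein coding. Header names of the first columns are shifted by 1, so those columns were read by content. No value column was left unmatched.

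Groups came from the labels. Genes were filtered with filterByExpr, scaled by TMM and fitted in 1 robust edgeR 4.0.16 quasi-likelihood model over all 12 libraries (R 4.3.3). Contrasts were adjusted by Benjamini-Hochberg over 12160 genes and called at an adjusted p under 0.05. The common biological coefficient of variation was 2.71%. The SE was taken as the log2 fold change divided by the root of the F statistic, an approximation. CPM were computed with TMM-scaled totals. Exon lengths and overlaps came from GENCODE release 29. The fit was tested on simulated data first. DESeq2 1.42.0, other scaling, no filter, only the groups compared, a replicate block and leaving out each library were alternatives.

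The members and the other gene lists were chosen with earlier results of these data known. Values per library are given for the 2 members with the largest and the 1 with the smallest radiation effect in each role group, the 3 most raised and the 3 most lowered by IFNγ in each IFNγ comparison, the called interactions, and members not raised by radiation. A result for 1 gene of the other lists is not reported here.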

Additional observations from a re-analysis of the deposited data

Results flagged for a closer look

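In 5 members the effect of radiation differed between cells with and without IFNγ by the test of the difference itself (edgeR quasi-likelihood interaction, adjusted p under 0.05 over all 12160 genes). On the log2 scale, the radiation effect with IFNγ minus that without was 0.53 for PLK2, 0.32 for GDF15, 0.25 for CDKN1A, -0.28 for ASCC3 and -0.46 for SUSD6. Over all alternatives run, PLK2 lay between 0.48 and 0.57, GDF15 between 0.27 and 0.36, CDKN1A between 0.21 and 0.31 and ASCC3 between -0.31 and -0.26, and these 4 calls held in each. SUSD6 lay between -0.58 and -0.34, and its call ended in DESeq2 and in 8 of the 12 runs that left out 1 library.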

How the results depend on the processing

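All 45 radiation calls kept their direction and their side of the threshold under every alternative run (other scaling, no filter on low counts, DESeq2, only the groups compared, the replicate block, and each library left out). With DESeq2, 9 in place of 14 members were lower with IFNγ, 2 in place of 6 were higher in the combination than with radiation alone, and 1 in place of 2 had a lower interaction. With library totals, 2 in place of 6 were higher in the combination than with radiation alone. Over all genes DESeq2 called 2129 in place of 3270 in that comparison and 147 in place of 289 interactions; without irradiated replicate 2 there were 161 interactions and without combination replicate 2 there were 179. Leaving out 1 library at a time gave 44 to 44 members higher and 1 to 1 lower for radiation, 42 to 43 and 1 to 1 for the combination against untreated, 44 to 44 and 0 to 0 for the combination against IFNγ, 4 to 6 and 10 to 14 for IFNγ, 3 to 7 and 8 to 10 for the combination against radiation, and 3 to 5 and 1 to 2 for the interaction. The causes of these shifts were not tested. KITLG in the combination against untreated cells, near 0, changed sign with RLE size factors (0.0021) and in DESeq2 (0.00085), and when 1 library was left out ran from -0.0201 to 0.0246 (without untreated replicate 2; 0.0143 without combination replicate 2 and 0.0009 without IFNγ replicate 1). EPHA2 in the combination against IFNγ changed sign with no filter (-0.0075), and with 1 library left out ran from -0.0081 (combination replicate 1; -0.0028 for IFNγ replicate 1) to 0.0135. None of these was called.

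The libraries carry replicate numbers. With the number as a replicate block the counts of members higher and lower were 44 and 1 (radiation), 43 and 1 (combination), 44 and 0 (combination against IFNγ), 6 and 14 (IFNγ), 6 and 9 (combination against radiation) and 3 and 2 (interaction), as without it. Deviations from the group mean correlated at r = -0.07 to 0.05 over 18 pairs of same-numbered libraries from different groups. Of 12 libraries 0 correlated best with their own number, so no pairing by number was detected. Whether same-numbered libraries shared a culture or a day was not tested.

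Depth limits the scarce members most: SPATA18, with as few as 15 counts, had an SE of 0.183 against 0.0373 for CDKN1A.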
